A study of Homo sapiens with 6 samples.

Results

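The lysosome is the acidic compartment in which cells break down lipids, glycans and proteins. Its enzymes work in the lumen at low pH, which a proton pump (the V-ATPase) in the lysosomal membrane maintains. Membrane proteins line the compartment and export what the enzymes release. TFEB, TFE3 and MITF are related transcription factors that are known to activate many lysosomal genes, and their entry into the nucleus is controlled by nutrient signalling through the kinase mTOR. In hepatocytes, lysosomes also take up and degrade lipoproteins and lipid droplets.

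The genes described here are 35 of the 60564 rows with an Ensembl gene identifier in a table of RNA sequencing counts. They were chosen by symbol, with earlier results of these data known, and comprise 3 transcription factors of the TFEB family, 18 hydrolases of the lumen, 2 luminal helper proteins, 7 membrane proteins and 5 proton pump subunits. Each symbol matched 1 row, and all 35 genes passed the filter on low counts that left 22230 genes to test. The samples are 6 libraries of HepG2, an established and unmodified human hepatoma line grown in DMEM medium with fetal calf serum, penicillin and streptomycin. The 3 formononetin libraries came from cells given this plant isoflavone for 72 h at a labelled dose of 625, with the unit written μm. For the 3 control libraries the treatment label names DMEM alone, with no solvent and no time. Whether the replicates were separate cultures is not stated, so p-values reflect the spread among these libraries alone, and that spread may be technical.

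Counts on named genes ranged from 30848848 to 36243606 in control and from 37465148 to 45682722 in formononetin libraries, and the 35 genes held 105931 to 196387 of them. All 8 hepatocyte markers (ALB, APOA1, AFP, TTR, TF, SERPINA1, FGB and HNF4A) were detected. Their summed level was 22077 to 22769 CPM (counts scaled to a common library total, after TMM adjustment) in control and 15758 to 16426 CPM with formononetin. Of the 8, ALB, AFP, TTR, TF, SERPINA1 and FGB fell, APOA1 was not called (log2 fold change 0.07 ± 0.04), and HNF4A rose (0.44 ± 0.09, adjusted p = 0.012). Their part in the results on lysosomal genes was not tested. In bulk RNA, fewer cells of a type and less RNA per cell cannot be told apart. Over all genes, 2659 were raised and 1937 lowered, and under upper quartile scaling 1813 were raised and 2737 lowered.

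More of the lysosomal genes were higher than lower in formononetin libraries, while the gene for TFEB itself was lower. Of the 35 genes 13 rose and 1 fell, and 21 were not called (quasi-likelihood test of edgeR, with p under 0.05 after Benjamini-Hochberg adjustment over all genes tested). The background is 20.7% of tested genes called, 12.0% as raised and 8.71% as lowered. Since well-measured genes are called more often, a closer background is the 10330 genes whose mean log2 CPM was at least 3, of which 34.3% were called, 21.6% as raised and 12.7% as lowered. Among the 31 lysosomal genes above that level, 12 rose and 1 fell. The median log2 fold change of the 35 genes was 0.23, against -0.01 for all genes tested and 0.05 for the better expressed ones. Every formononetin library lay above every control library for 19 of the 35 genes and below for 3. All tested genes gave 20.8% and 18.7%, or 39.4% without overlap in either direction. At a mean log2 CPM of at least 3, the counts were 17 above and 2 below for the 31 lysosomal genes. Among all 10330 genes at that level they were 3438 above and 2165 below. Under upper quartile scaling 10 of the 35 were raised and 2 lowered.

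**Figure D1:**
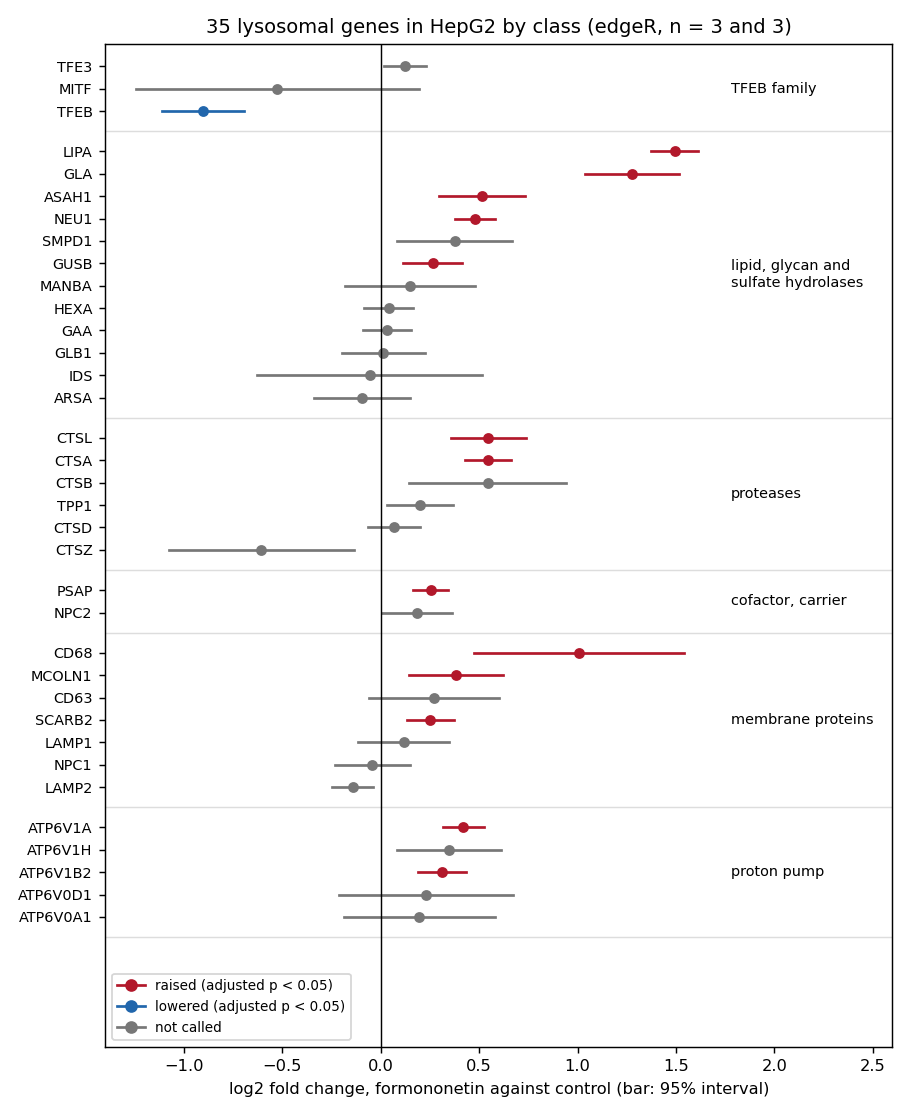
Log2 fold change of formononetin against control for each of the 35 lysosomal genes (x axis), grouped by class (y axis), with the 95% interval of the fit as a bar and 3 libraries per group. LIPA and GLA lie furthest to the right at 1.49 and 1.28, and TFEB furthest to the left at -0.90.

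Of the TFEB family, TFEB was the only member called. TFEB (ENSG00000112561, chromosome 6, 41683978 to 41736259, GRCh38) was at 24.4, 21.6 and 20.6 CPM in control replicates 1 to 3 and at 11.5, 12.3 and 11.8 CPM in formononetin replicates 1 to 3. All formononetin libraries were below all controls, with means of 22.2 ± 1.99 and 11.9 ± 0.419 CPM (SD, n = 3 per group). The log2 fold change was -0.90 ± 0.09 (standard error, adjusted p = 0.000797). TFEB thus fell by 46.5%, and it was called in all 19 alternative fits.

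Transcripts of TFE3 were the most abundant of the family in these cells per transcript length. TFE3 (chromosome X, 49028726 to 49043486) was at 71.8, 68.9 and 68.9 CPM in controls against 78.1, 75.2 and 75.0 CPM with formononetin. The groups did not overlap, but the difference of 0.12 ± 0.05 on the log2 scale was not called (adjusted p = 0.107). MITF, best known from melanocytes, was barely detected, with 0.428, 0.671 and 0.619 CPM in controls against 0.372, 0.498 and 0.331 CPM with formononetin. Its log2 fold change of -0.53 ± 0.31 was not called (95% interval -1.25 to 0.19, adjusted p = 0.282).

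Per kilobase of coding transcript, the mean level of TFEB was 9.82 CPM in controls against 5.26 CPM with formononetin, and that of TFE3 was 20.5 and 22.3 CPM. The summed CPM of the 3 factors was 90.1 to 96.7 in control and 87.2 to 90.0 in formononetin libraries, since TFE3 holds most of it. The melanocyte markers TYR, DCT, PMEL and MLANA summed to 1.12 to 1.98 CPM in controls against 0.844 to 1.52 CPM with formononetin, and TYR had no counts in any library.

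**Figure D2:**
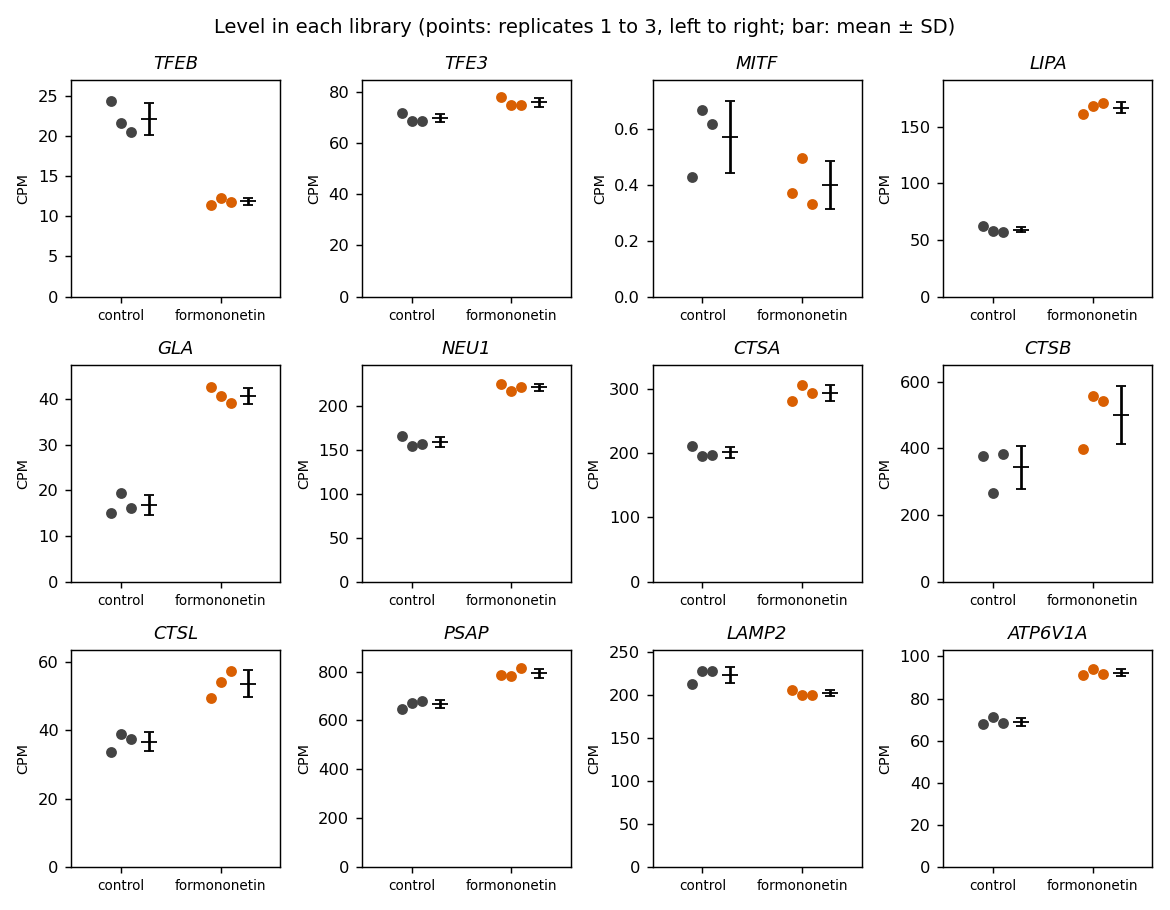
Level in CPM (y axis, from 0) of 12 lysosomal genes in each control and formononetin library (x axis), with mean ± SD beside the points. The formononetin libraries of LIPA, at 161 to 171 CPM, are far from the controls at 57.2 to 62.1 CPM, whereas those of CTSB, at 398 to 557 CPM, begin just above the highest control at 383 CPM.

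TFEB family factors are known to bind the sequence CACGTG, often with T before or A after it, near the start of many lysosomal genes. This core was searched in the RefSeq windows (GRCh38.p14) that run from 250 bases before to 50 bases after each annotated start. CACGTG reads the same on both strands, and the version with T before or A after it contains the core. Windows matched 25 of the 35 genes, and HEXA, MANBA, ASAH1, ARSA, CTSB, PSAP, LAMP2, ATP6V1A, ATP6V1B2 and ATP6V1H were not matched. The core was present in 8 of 25 genes (32%), against 8.77% of all 27305 genes with a window and 10.9% of the 15843 protein-coding ones. With a flanking T or A it was present in 7 of 25 (28%), against 4.49% of all and 5.83% of protein-coding genes. Counted by window, 20.5% of 39 windows held it, against 7.26% of all 35116 windows. A match is a description of the sequence and shows no binding. One site for each of the 8 genes follows, on the strand of the gene, so that the core (in capitals) can be set beside the response of the gene.
GAA, chr17:80101538-80101567, plus strand: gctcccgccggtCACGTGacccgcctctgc
NEU1, chr6:31862930-31862959, minus strand: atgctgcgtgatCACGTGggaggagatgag
CTSA, chr20:45891298-45891327, plus strand: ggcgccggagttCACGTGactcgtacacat
CTSD, chr11:1763957-1763986, minus strand: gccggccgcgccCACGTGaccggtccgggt
LAMP1, chr13:113297199-113297228, plus strand: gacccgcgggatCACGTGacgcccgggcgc
MCOLN1, chr19:7522598-7522627, plus strand: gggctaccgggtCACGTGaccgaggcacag
CD63, chr12:55729172-55729201, minus strand: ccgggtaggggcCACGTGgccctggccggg
ATP6V0D1, chr16:67481199-67481228, minus strand: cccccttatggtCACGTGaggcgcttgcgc

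Genes with and without this core both included raised ones. Of the 8 with it, NEU1, CTSA and MCOLN1 rose and GAA, CTSD, LAMP1, CD63 and ATP6V0D1 were not called, with a median log2 fold change of 0.25. LAMP1, which holds 6 copies of the core, had a log2 fold change of 0.12. Of the 17 genes whose windows lack it, 6 rose and TFEB fell, at a median of 0.20, and the difference between the 2 sets was not tested. All tested genes gave 12.0% raised and 8.71% lowered, and better expressed ones 21.6% and 12.7%. The calls of MCOLN1, with the core, and of GUSB, SCARB2 and CD68, without it, were lost in some alternative fits. LIPA and GLA, with the largest rises, and TFEB, TFE3 and MITF themselves have no core in these windows. For LIPA, however, none of 3 coding transcript starts in GENCODE lies inside the searched windows, and the same holds for the single start of NPC1. Other genes without the core were covered in part. The windows held 3 of 6 such starts for TFEB, 6 of 9 for MITF and 1 of 3 for GLB1. They held 2 of 3 for CTSL, 6 of 8 for TPP1 and 3 of 7 for SCARB2.

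The enzymes of lipid and glycan breakdown held the largest rises. LIPA encodes the acid lipase that hydrolyses cholesteryl esters and triglycerides delivered to lysosomes (ENSG00000107798, chromosome 10, 89213569 to 89414557). Its level was 62.1, 58.1 and 57.2 CPM in control replicates 1 to 3 and 161, 168 and 171 CPM in formononetin replicates 1 to 3. The groups were far apart, and the rise of 1.49 ± 0.05 on the log2 scale, or 2.82-fold, was the largest of the 35 genes (adjusted p = 1.16e-05). GLA encodes alpha-galactosidase A, the enzyme that removes terminal galactose from glycolipids and is deficient in Fabry disease (ENSG00000102393, chromosome X, 101397803 to 101408012). It was at 15.0, 19.3 and 16.1 CPM in controls against 42.6, 40.6 and 39.1 CPM with formononetin. The lowest formononetin library was well above the highest control, and the rise was 1.28 ± 0.10 on the log2 scale, or 2.42-fold (adjusted p = 0.00041).

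Smaller rises were found for 3 further enzymes of this class. NEU1, the lysosomal sialidase (chromosome 6, 31857659 to 31862906), acts in a complex with the protease that CTSA encodes. NEU1 was at 166, 154 and 156 CPM in controls against 225, 217 and 221 CPM with formononetin, a log2 fold change of 0.48 ± 0.04 (adjusted p = 0.000597). ASAH1, the acid ceramidase, was at 67.0, 74.5 and 63.7 CPM in controls against 109, 87.4 and 96.9 CPM with formononetin (0.51 ± 0.09, adjusted p = 0.00855). GUSB, the beta-glucuronidase, rose by 0.26 ± 0.06 on the log2 scale, from 25.7 ± 0.875 to 30.9 ± 1.33 CPM (adjusted p = 0.0277). All formononetin libraries exceeded all controls for these 3 enzymes. The call of GUSB was lost with upper quartile scaling, in the fit with a replicate block, and when control library 1, 2 or 3 or formononetin library 1 or 2 was left out.

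The other 7 enzymes of lipids, glycans and sulfate esters were not called. GAA, the glycogen-degrading alpha-glucosidase mutated in Pompe disease, was at 52.8, 51.4 and 52.6 CPM in controls against 54.1, 55.0 and 51.2 CPM with formononetin. The libraries overlapped, and the 95% interval of its log2 fold change was -0.09 to 0.15. For HEXA, a subunit of the beta-hexosaminidase that degrades gangliosides, it was -0.08 to 0.16. For GLB1, the beta-galactosidase, the interval was -0.20 to 0.23, for ARSA, the sulfatase of sulfatides, -0.34 to 0.15, and for MANBA, the beta-mannosidase, -0.18 to 0.48. IDS, the iduronate sulfatase, gave the widest interval of the class, -0.63 to 0.52. Its control libraries ran from 11.4 to 23.8 CPM, and its sign changed without control replicate 1 (0.27) or formononetin replicate 1 (0.02). IDS shares 1529 exon bases on the same strand with AC244197.3, which was at 9.23 CPM in control replicate 3 and at 0.629 to 2.23 CPM in the other libraries. SMPD1, the acid sphingomyelinase, was at 4.54, 4.83 and 5.40 CPM in controls against 6.97, 6.37 and 5.83 CPM with formononetin, without overlap, and was not called (0.37 ± 0.12, adjusted p = 0.0753).

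Of the 12 enzymes of this class 5 rose (41.7%) and none fell (median log2 fold change 0.21). Better expressed genes, which do not include SMPD1, gave 21.6% raised and 12.7% lowered. The summed level of the 12 enzymes was 647, 647 and 645 CPM in controls against 910, 866 and 877 CPM with formononetin. The ratio of the group means was 1.37, and LIPA added the most to it, with a mean of 59.1 CPM in controls against 167 CPM with formononetin.

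**Figure D3:**
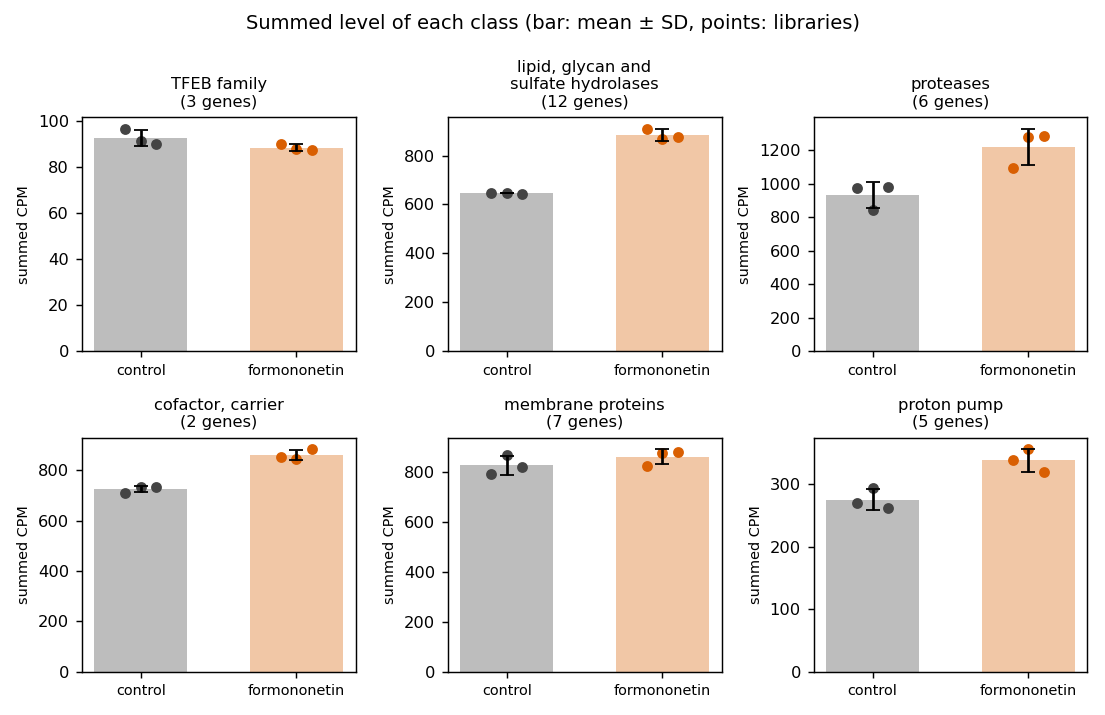
Summed CPM (y axis, from 0) of each class in control and formononetin libraries (x axis), as mean ± SD with the 3 libraries of each group as points. The formononetin points lie above the control points in the lipid, glycan and sulfate hydrolases, the proteases, the cofactor and carrier, and the proton pump, below them in the TFEB family, and among them in the membrane proteins at 825 to 881 against 790 to 866 CPM.

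Among the proteases, 2 of 6 rose (33.3%) and none fell (median log2 fold change 0.37). Of better expressed genes, which do not include CTSZ, 34.3% were called in either direction, 21.6% as raised. CTSA encodes cathepsin A, a carboxypeptidase that also protects NEU1 and beta-galactosidase (ENSG00000064601, chromosome 20, 45890144 to 45898820). CTSA was at 211, 196 and 196 CPM in controls against 281, 306 and 293 CPM with formononetin, so that the groups were well apart. The rise was 0.55 ± 0.05 on the log2 scale (adjusted p = 0.000632). Exons of PLTP and NEURL2 overlap CTSA on the opposite strand, with 4071 and 987 counts over the 6 libraries against 56344 for CTSA. CTSL, the cysteine protease cathepsin L (chromosome 9, 87725519 to 87731393), was at 33.6, 38.9 and 37.6 CPM in controls against 49.3, 54.3 and 57.2 CPM with formononetin. CTSL rose by 0.55 ± 0.08 on the log2 scale (adjusted p = 0.00396).

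CTSB, the cysteine protease cathepsin B, had a mean difference of equal size but a far larger spread between libraries. Its level was 377, 266 and 383 CPM in controls against 398, 557 and 541 CPM with formononetin. The groups did not overlap, yet control replicate 2 stood low and formononetin replicate 1 lay close to the controls. The log2 fold change of 0.54 ± 0.17 was not called (adjusted p = 0.0629), and it was called with DESeq2, with library totals as scaling and without formononetin replicate 1. The aspartic protease gene CTSD was at 273, 275 and 292 CPM in controls against 287, 278 and 314 CPM with formononetin (0.07, 95% interval -0.07 to 0.20, not called). TPP1, the tripeptidyl peptidase lost in a form of neuronal ceroid lipofuscinosis, was at 68.9 ± 6.08 CPM in controls against 79.0 ± 2.80 CPM with formononetin (0.20 ± 0.07, adjusted p = 0.0966). It was called with library totals as scaling and without control replicate 1. CTSZ, the carboxypeptidase cathepsin Z, was scarcely detected, at 1.55, 1.45 and 1.98 CPM in controls against 1.07, 1.23 and 0.971 CPM with formononetin. All formononetin libraries were below the controls, and the difference of -0.61 ± 0.20 was not called (adjusted p = 0.0736).

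Of the luminal helper proteins, PSAP rose. It encodes prosaposin, the precursor of the saposins that present sphingolipids to their hydrolases (chromosome 10, 71816298 to 71851375). PSAP was the most abundant of the 35 transcripts per length in control libraries, with 236 CPM per kilobase. Its level was 648, 672 and 680 CPM in controls against 787, 781 and 815 CPM with formononetin. The spread within each group was small beside the difference, and the rise was 0.25 ± 0.04 on the log2 scale, or 19.2% (adjusted p = 0.00423). NPC2, which carries cholesterol in the lumen, was at 62.7, 60.5 and 52.8 CPM in controls against 64.4, 65.5 and 70.1 CPM with formononetin. The difference of 0.18 ± 0.08 was not called (adjusted p = 0.134).

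The summed level of the membrane proteins differed little (ratio of means 1.04), and LAMP1, LAMP2, NPC1 and CD63 were not called. LAMP1 and LAMP2 encode the heavily glycosylated proteins that line the lysosomal membrane. LAMP2 was at 213, 229 and 229 CPM in controls against 206, 201 and 200 CPM with formononetin. All formononetin libraries were lower, by 0.14 ± 0.04 on the log2 scale, just short of the threshold (adjusted p = 0.0561). LAMP2 was called as lowered with limma voom, under upper quartile scaling, with a filter of 1 CPM in 3 libraries and without control replicate 1. LAMP1 was at 178, 197 and 164 CPM in controls against 174, 220 and 190 CPM with formononetin, with overlap (0.12, 95% interval -0.11 to 0.35). NPC1 exports cholesterol from the lysosome together with NPC2. NPC1 was at 206 ± 22.6 CPM in controls against 200 ± 10.0 CPM with formononetin (-0.04, interval -0.23 to 0.15), and its sign changed without control replicate 2. CD63, a tetraspanin of lysosomes and exosomes, was at 127, 118 and 137 CPM in controls against 122, 154 and 185 CPM with formononetin. Its libraries overlapped, and the difference of 0.27 ± 0.14 was called only without formononetin replicate 1 among the alternatives run.

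Of the 7 membrane protein genes 3 rose (42.9%) and none fell (median 0.25). Better expressed genes, which do not include CD68, gave 21.6% and 12.7%. Each of the 3 calls of membrane protein genes depended on the settings. SCARB2 encodes LIMP-2, the receptor that carries glucocerebrosidase to lysosomes. It was at 73.6, 80.4 and 79.1 CPM in controls against 94.6, 91.1 and 91.7 CPM with formononetin (0.25 ± 0.05, adjusted p = 0.0136). The call of SCARB2 was lost under upper quartile scaling and without formononetin replicate 1. MCOLN1, the calcium channel of the lysosomal membrane, was at 8.13, 7.32 and 7.73 CPM in controls against 10.8, 9.39 and 10.0 CPM with formononetin (0.38 ± 0.10, adjusted p = 0.0359). It separated the groups, but its call was lost without any 1 of the 6 libraries, with upper quartile scaling and in the fit with a replicate block. The call also ended when the counts of 2 genes that share exon bases with it on the same strand were added. These were PNPLA6 (6 bases, mean of 34.2 CPM in controls) and AC008878.2 (169 bases). With AC008878.2 alone, under the limit of at least 50 shared bases, the call was kept.

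CD68, a glycoprotein of late endosomes that is abundant in macrophages, gave a rise that depends on how reads were assigned. It was at 3.88, 3.77 and 2.39 CPM in controls against 5.26, 7.79 and 7.13 CPM with formononetin (1.01 ± 0.23, adjusted p = 0.0204). The call was lost without formononetin replicate 2 or 3. The gene shares 1789 exon bases on the same strand with the gene model AC016876.2, which was at 25.9, 29.8 and 31.4 CPM in controls against 25.1, 18.7 and 19.8 CPM with formononetin. Summed, the 2 were at 29.8, 33.6 and 33.8 CPM in controls against 30.3, 26.5 and 27.0 CPM with formononetin, a log2 fold change of -0.21 that was not called. Of 8 macrophage markers, PTPRC and TYROBP had no counts in any library. The list summed to 1199 to 1291 CPM in controls against 971 to 1011 CPM with formononetin, nearly all of it LYZ at 1234 ± 48.6 and 982 ± 22.1 CPM.

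Every one of the 5 proton pump subunits had a positive log2 fold change (median 0.31, against 0.05 for better expressed genes). Of the 5, 2 rose (40%), where 21.6% of better expressed genes were raised. ATP6V1A encodes the catalytic subunit of the part of the pump that hydrolyses ATP (ENSG00000114573, chromosome 3, 113747019 to 113812056). It was at 67.7, 71.0 and 68.1 CPM in controls against 91.0, 94.1 and 91.8 CPM with formononetin, and within each group the libraries differed little. The rise was 0.42 ± 0.05 on the log2 scale (adjusted p = 0.00106). ATP6V1B2, its partner in the ring of that part, was at 62.8, 68.5 and 67.3 CPM in controls against 82.0, 84.1 and 80.7 CPM with formononetin (0.31 ± 0.05, adjusted p = 0.00597). ATP6V1H, a regulatory subunit, was at 20.6, 17.9 and 21.4 CPM in controls against 25.7, 22.1 and 28.2 CPM with formononetin. Its groups did not overlap, and the difference of 0.35 ± 0.11 was not called (adjusted p = 0.0701). It was called in 4 alternatives (DESeq2, library totals as scaling, a replicate block, and without formononetin replicate 2).

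The 2 subunits of the membrane-embedded part varied more between libraries. ATP6V0A1 was at 74.7, 102 and 77.7 CPM in controls against 90.2, 119 and 82.4 CPM with formononetin (0.20, 95% interval -0.19 to 0.58). ATP6V0D1 was at 43.7, 34.9 and 27.3 CPM in controls against 50.3, 36.8 and 37.0 CPM with formononetin (0.23, interval -0.21 to 0.67). Both overlapped between groups, and neither was called. The summed level of the 5 subunits was 262 to 294 CPM in controls against 320 to 356 CPM with formononetin.

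Mean levels per kilobase of coding transcript spanned a wide range within the set. In control libraries PSAP was followed by CTSB at 170, CD63 at 154, CTSD at 148, LAMP2 at 107 and CTSA at 106 CPM per kilobase. CTSA reached 155 CPM per kilobase in formononetin libraries and LAMP2 96.9. LIPA went from 23.4 to 65.9 CPM per kilobase and GLA from 12.3 to 29.7. The lowest levels in control libraries were those of MITF at 0.174, CTSZ at 1.11, CD68 at 1.83, SMPD1 at 2.12 and MCOLN1 at 3.71 CPM per kilobase.

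Other genes of the organelle, in 8 lists of 126 genes, were mostly not called, and those that were called were nearly all raised. GALC, CTSF and CTSO had too few counts to test. Of the 123 tested, 35 rose (28.5%) and 2 fell (1.63%), at a median log2 fold change of 0.16. Better expressed genes gave 21.6% and 12.7%, and all tested genes 12.0% and 8.71%. Under upper quartile scaling 22 of the 123 were raised and 6 lowered. Among 23 other hydrolases 9 rose (39.1%), or 5 without formononetin replicate 2. They were led by NAAA, which hydrolyses fatty acid amides and is related to the acid ceramidase (0.77 ± 0.11). Next came GM2A, the activator that lifts a ganglioside out of the membrane for HEXA (0.65 ± 0.11). Of 8 other proteases 1 rose (12.5%), against 12.0% of all tested genes and 21.6% of better expressed ones. CTSK, CTSS and CTSV are not among the better expressed genes. The protease gene that rose was that of the carboxypeptidase SCPEP1, from 9.53 ± 0.834 to 16.6 ± 0.786 CPM (0.80 ± 0.10). The count was 2 with library totals as scaling or without control replicate 2 or 3. Of 22 other membrane proteins 4 rose (18.2%), against 12.0% of all tested genes and 21.6% of better expressed ones. LAMP3 and TMEM175 are not among the better expressed genes. The largest called rises were in LAPTM4B (0.74 ± 0.07) and SLC17A5, the exporter of free sialic acid (0.47 ± 0.08). The count of 4 was 2 under upper quartile scaling or when control library 3 or formononetin library 1 or 3 was left out.

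Of 11 other subunits and accessory proteins of the proton pump 6 rose (54.5%) and 1 fell (9.09%). Better expressed genes gave 21.6% and 12.7%. The largest rises were in ATP6V1E1, a stalk subunit (0.64 ± 0.17), and ATP6AP2, an accessory protein also called the prorenin receptor (0.52 ± 0.10). ATP6V1C1, the subunit that links the 2 parts of the pump, fell from 49.9 ± 1.97 to 39.2 ± 1.49 CPM (-0.35 ± 0.06, adjusted p = 0.00653). ATP6V0A2 (-0.15) and ATP6V1D (-0.05) also had negative log2 fold changes and were not called. The call of ATP6V1E1 was lost under upper quartile scaling and when control library 1 or 3 or formononetin library 1 or 2 was left out.

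**Figure D4:**
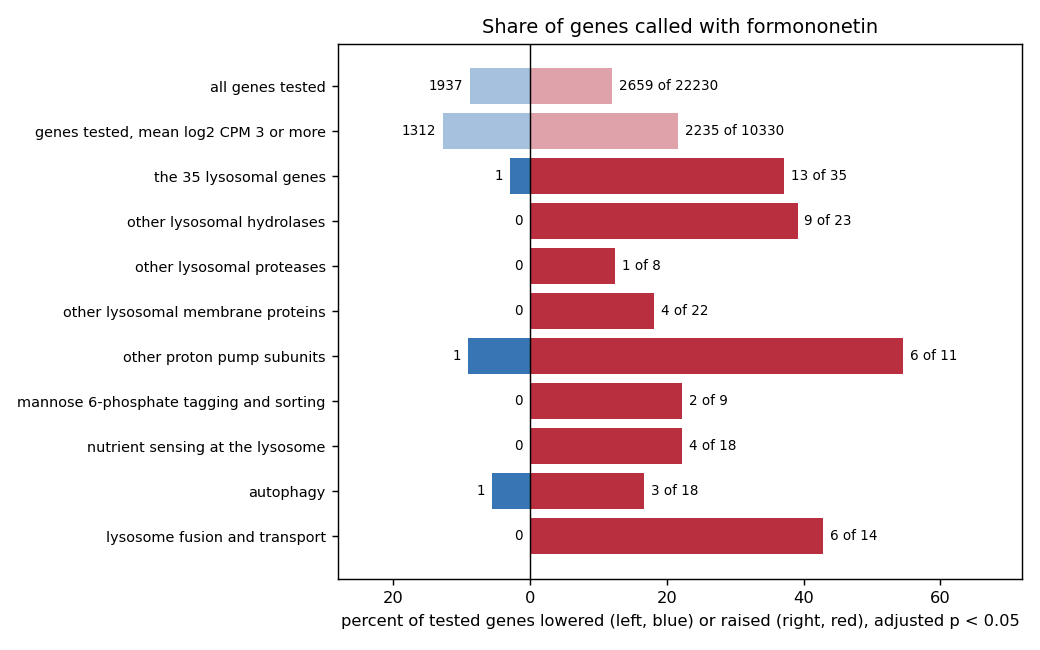
Percent of tested genes lowered (left) or raised (right) with formononetin (x axis) in each list (y axis), with the numbers of genes beside the bars and both backgrounds at the top in pale colours. The 35 lysosomal genes show 13 raised and 1 lowered, and the other proton pump subunits show 6 of 11 raised.

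Of 9 genes for tagging and sorting lysosomal enzymes 2 rose (22.2%), a share near the 21.6% of better expressed genes in general. IGF2R, the receptor that carries enzymes bearing mannose 6-phosphate to the lysosome, was at 1180 ± 3.26 CPM in controls against 1454 ± 24.2 CPM with formononetin (0.30 ± 0.03, adjusted p = 0.00118), and the adaptor gene GGA2 changed by 0.42 ± 0.08. Of 18 genes of nutrient sensing at the lysosome 4 rose, or 2 when control library 2 or formononetin library 3 was left out. The share was 22.2%, against 12.0% of all tested genes and 21.6% of better expressed ones, which do not include RRAGD and LAMTOR4. The 4 raised genes were RHEB (0.40 ± 0.09), LAMTOR3 (0.33 ± 0.08), MTOR and RRAGD, of which the last 2 were named after their values were seen. RRAGD encodes a GTPase that helps to recruit mTOR and TFEB to lysosomes. RRAGD was at 1.35, 1.15 and 0.944 CPM in controls against 2.73, 3.25 and 3.27 CPM with formononetin, a rise of 1.43 ± 0.18 (adjusted p = 0.00206). The call of RHEB was lost when control library 1 or 2 or formononetin library 3 was left out. That of LAMTOR3 was lost in 7 alternatives, 5 of them with 1 library left out.

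Of 18 autophagy genes 3 rose (16.7%) and 1 fell (5.56%), where better expressed genes gave 21.6% and 12.7%. SQSTM1, the cargo receptor p62, was at 419 ± 8.99 CPM in controls against 902 ± 19.3 CPM with formononetin (1.11 ± 0.04, adjusted p = 1.16e-05), and UVRAG rose by 0.38 ± 0.06. The kinase gene ULK1, which starts autophagy, fell (-0.31 ± 0.07, adjusted p = 0.023). The call of ULK1 was lost with library totals as scaling and when control library 1 or 3 or formononetin library 3 was left out, and under upper quartile scaling 3 genes of this list were lowered. Of 14 genes for lysosome fusion and transport 6 rose (42.9%). Among them were the tethering subunits VPS18 (0.50 ± 0.08) and VPS33A (0.33 ± 0.07, lost without formononetin replicate 1). The count of 6 was 3 with DESeq2, 2 with upper quartile scaling or in the fit with a replicate block, 2 without control replicate 1 and 1 without formononetin replicate 1. It was 3 without control replicate 2 and 2 without formononetin replicate 2 or 3.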

How the data were processed

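The authors deposited whole-number raw counts per gene for 3 control and 3 formononetin libraries, made with a stranded mRNA kit per the labels' protocols. The submitters' processing notes name STAR 2.5.3a, StringTie 1.3.1c and GRCh38 without their roles. What counted the reads, with which strand setting and annotation, is not given in the sources used here. Exons shared with another gene therefore make a value uncertain. Rows without a gene name (2165, with 3.82 to 5.62% of counts) were left out. Gene symbols were looked up by identifier (60295 matched), with coordinates and transcript lengths from GENCODE 29 (GRCh38). Levels per kilobase use the median length of a gene's basic coding transcripts.

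Genes passing filterByExpr were scaled with TMM and tested with edgeR 4.0.16 in R 4.3.3 (quasi-likelihood, glmQLFTest after glmQLFit, with group as sole term, two-sided, threshold 0.05 after Benjamini-Hochberg adjustment). Each standard error is the log2 fold change over the root of its F statistic. Intervals at 95% come from the same fit and are not adjusted. Alternatives were DESeq2 1.42.0, limma 3.58.1 voom, other scalings and filters, a replicate block, unnamed rows kept, mitochondrial and the 10 largest genes left out, overlapping genes summed, and each library left out. A sum limited to at least 50 shared bases was chosen after seeing the data. The members and lists were chosen with earlier results of these data known. From other lists up to 2 raised genes and 1 lowered gene with mean log2 CPM of at least 3 were named, the largest by fold change. Counts on named genes were 30848848 to 45682722 per library. Between libraries of 1 group, chi-square over its degrees of freedom was 16.0 to 53.6 for the 35 genes, so the spread between libraries exceeded counting error. Figures were drawn with matplotlib 3.10.9.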

Additional observations from a re-analysis of the deposited data

How the results depend on the processing

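Of the 14 called genes, 10 (TFEB, LIPA, GLA, NEU1, ASAH1, CTSA, CTSL, PSAP, ATP6V1A and ATP6V1B2) kept their direction and call in all 19 alternatives. GUSB, SCARB2, MCOLN1 and CD68 did not, and except for the summed overlaps the cause was not tested. Leaving out 1 library gave 1703 to 2189 raised and 1272 to 1478 lowered genes in all, against 2659 and 1937, lowest without formononetin replicate 3 for raised and control replicate 3 for lowered genes. It gave 11 to 12 raised and 1 to 2 lowered among the 35 genes, and 23 to 28 raised and 1 to 4 lowered over the other lists. Lowered genes of the 35 numbered 2 with limma voom, upper quartile scaling or a filter of 1 CPM in 3 libraries. The other lists had 22 raised and 6 lowered under upper quartile scaling, and 1 lowered with library totals. The median of all genes moved from -0.01 to -0.09 under upper quartile scaling.

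Class medians of log2 fold changes under upper quartile scaling were 0.13 for lipid, glycan and sulfate hydrolases, 0.14 for the cofactor and carrier, 0.17 for membrane proteins, 0.23 for the proton pump and 0.15 for all 35 genes. For membrane proteins it was 0.29 with library totals, 0.11 with overlapping genes summed and 0.12 with at least 50 shared bases. For all 35 it was 0.24 with limma voom, 0.27 with library totals, 0.25 with no filter, 0.24 with a replicate block, 0.24 with unnamed rows, 0.19 with overlapping genes summed and 0.20 with at least 50 shared bases. Without 1 library the medians ran from 0.15 to 0.27 for these hydrolases, 0.26 to 0.40 for proteases, 0.18 to 0.23 for the cofactor and carrier, 0.12 to 0.26 for membrane proteins, 0.30 to 0.37 for the pump and 0.22 to 0.26 for all 35.

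Signs changed in 6 genes that were not called and in CD68, which was called. Under upper quartile scaling GLB1 was at -0.066, GAA at -0.047, HEXA at -0.039 and CTSD at -0.013. GLB1 was at -0.00191 with the filter of 1 CPM and ran from -0.064 to 0.095 without 1 library. IDS was at 0.023 with limma voom and 0.0012 with a replicate block, and ran from -0.28 to 0.27 without 1 library. NPC1 ran from -0.11 to 0.045 without 1 library. CD68 was at -0.21 with overlapping genes summed under either limit. The replicate numbers are not said to pair libraries. Deviations of same-numbered libraries correlated at -0.0021, 0.0092 and -0.022, and 2 of 6 libraries correlated best with their own number. With the replicate block, 12 of the 35 genes were raised, 11 of them also raised without it, and 1921 genes were raised and 1362 lowered in all.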

Other observations

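TMPPE, a gene of the metallophosphoesterase family that shares 83 exon bases with GLB1 on the same strand, was at 26.4, 25.3 and 27.5 CPM in control and 36.7, 35.6 and 33.2 CPM in formononetin libraries. The groups did not overlap (log2 fold change 0.41 ± 0.07, adjusted p = 0.00558, edgeR quasi-likelihood test), whereas GLB1 had a log2 fold change of 0.01 ± 0.09. The difference between the genes was not tested. TMPPE was named after its values were seen.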
